A study of Mus musculus with 4 samples.

Results

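The genes described here encode the nuclear subunits of the mitochondrial respiratory chain and of ATP synthase, together with the Ndufaf assembly factors of complex I. They were chosen by symbol: every gene whose only symbol in the platform annotation starts with Nduf, Uqcr, Cox4 to Cox8 or Atp5, or is Sdha, Sdhb, Sdhc or Sdhd. The rule used no measured value, although it was chosen with earlier results of these data known. It found 90 of the 18193 genes named by 1 symbol, and 88 of these were among the 13222 genes that passed the filter on low values and were tested. The zymosan group was 2 Affymetrix Mouse430_2 arrays of MyD88 -/- bone marrow-derived macrophages exposed to 100 ug/ml zymosan, a yeast cell wall particle, for 120 min. The unstimulated group was 2 arrays of MyD88 -/- bone marrow-derived macrophages taken at 0 min. All 4 arrays thus came from cells without MyD88, the adaptor of most Toll-like receptors and of the interleukin-1 receptor, grown for 6 days in recombinant human M-CSF, and no wild-type array was analysed here. The labels do not state that the arrays of a group came from different mice or cultures. The p-values therefore speak of array-to-array spread, some of which may be technical.

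The respiratory chain passes electrons from NADH (complex I) and succinate (complex II) through coenzyme Q, complex III and cytochrome c to oxygen at complex IV, and pumps protons across the inner mitochondrial membrane as it does so. ATP synthase, also called complex V, uses the returning protons to make ATP. Macrophages are known to shift between oxidative phosphorylation and glycolysis as they are activated, and complex I and complex II are known sources of reactive oxygen species in these cells. The subunits measured here are encoded in the nucleus, made in the cytosol and imported.

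Each value below is a log2 expression value of 1 probe set, the group of short oligonucleotides that reports 1 transcript, and each gene is given by its probe set of highest mean. A difference is zymosan minus unstimulated on the log2 scale, with the standard error (SE) of the limma fit over all tested genes and a p adjusted over all of them by the Benjamini-Hochberg method. A gene is said to have risen or fallen where that adjusted p was under 0.05. A probe set's level depends on its oligonucleotides, so levels are compared between arrays and not between genes. In bulk RNA, fewer cells of a type and less RNA per cell cannot be told apart.

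The 4 arrays had medians of 4.92 to 4.94. The array scans of the zymosan group fell on 1 day, 153 days after the first unstimulated scan, under another operator and project, and the unstimulated scans lay 16 days apart. Scan day and stimulus therefore cannot be told apart for any gene named here. Myd88 had 8.37 and 8.40 on the zymosan arrays, against 8.72 and 8.78 on the unstimulated arrays (-0.37, adjusted p = 0.0506). This signal lay above the filter's level of 4.36 to 4.39 on all 4 arrays, though all are labelled MyD88 -/-. Which part of the gene its probes read was not examined, so the signal checks no label. Both unstimulated arrays are labelled untreated, although LPS stands in the title of one and PIC in that of the other. All 10 macrophage markers lay above the filter's level on every array, with a log2 summed level of 15.45 on both zymosan arrays, against 15.64 and 15.79 on the unstimulated arrays, and 6 of the 10 fell and 0 rose (0 at an unadjusted p under 0.05 as well). Of 9 granulocyte and precursor markers, 8 rose, with a log2 summed level of 12.1 and 12.2 on the zymosan arrays, against 9.99 and 10.1 on the unstimulated arrays. Mpo (3.23), S100a8 (2.49) and S100a9 (2.38) had the largest differences among them, and none of the 9 lay below the filter's level on all arrays. These markers moved with every change described below, and their part in it was not tested. Markers of other cells were mostly low but not absent. Below the filter's level on all 4 arrays were 3 of 7 T and NK cell markers (Cd3d, Cd3g, Cd2), 1 of 5 B cell (Ms4a1), 2 of 6 dendritic cell (Ccr7, Xcr1), 1 of 4 erythroid (Hba-a1) and 3 of 6 stromal markers (Col1a1, Col3a1, Lum). Others were above it on every array, among them Cd3e (5.84 and 6.01 on the zymosan arrays, against 6.03 and 6.21), Cd4, Cd22, Flt3 and Epor. None of these 5 lists had a marker that rose (1 of them, in the B cell list, was higher at an unadjusted p under 0.05), while Cd79b of B cells (-0.58) and Itgax of dendritic cells (-0.93) fell. The log2 summed level of the dendritic cell list was 8.03 and 8.03 on the zymosan arrays, against 8.42 and 8.37 on the unstimulated arrays, and that of the other 4 lists ran from 6.95 to 7.93 on the zymosan arrays, against 7.02 to 7.99.

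After 120 min of zymosan, transcripts of a few complex I subunits and assembly factors and of the muscle-type complex IV subunit Cox6a2 were higher, and those of 1 subunit each of complexes I and V and of the complex IV factor Cox7a2l were lower. Of the 88 tested genes 9 rose, which is 10.2% of them, beside a percent called of 10.1 for higher genes in the whole table. The lower calls numbered 3, or 3.41%, beside 6.73 percent of all tested genes, and calls in either direction made up 16.8 percent of the whole table. The share that rose was thus close to the background. The differences were small. The median over the 88 genes was 0.10 (range -0.52 to 2.06), beside 0.00 (0.00434) over all tested genes, 59 of the 88 (67.0%) differed by less than 0.25 beside 61.5 percent of all genes, and only Cox6a2 differed by 1 or more, beside 3.8 percent of all genes. The direction was less even. The difference was above 0 for 58 of the 88 (65.9%), beside 50.7 percent of all genes, and the zymosan arrays lay wholly above the unstimulated ones for 43 genes (48.9%, beside 32.4 percent) and wholly below for 19 (21.6%, beside 28.2 percent). At an unadjusted p under 0.05, 19 were higher and 10 lower, where the whole table had 18.5 and 13.9 percent. The 2 genes left out by the filter were Ndufb4, at 3.37 and 3.33 on the zymosan arrays and 3.52 and 3.47 on the unstimulated arrays, and Cox7b2, at 3.01 and 3.03 against 3.24 and 3.12. Both stayed below the filter's level of 4.36 to 4.39 on every array.

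**Figure D1:**
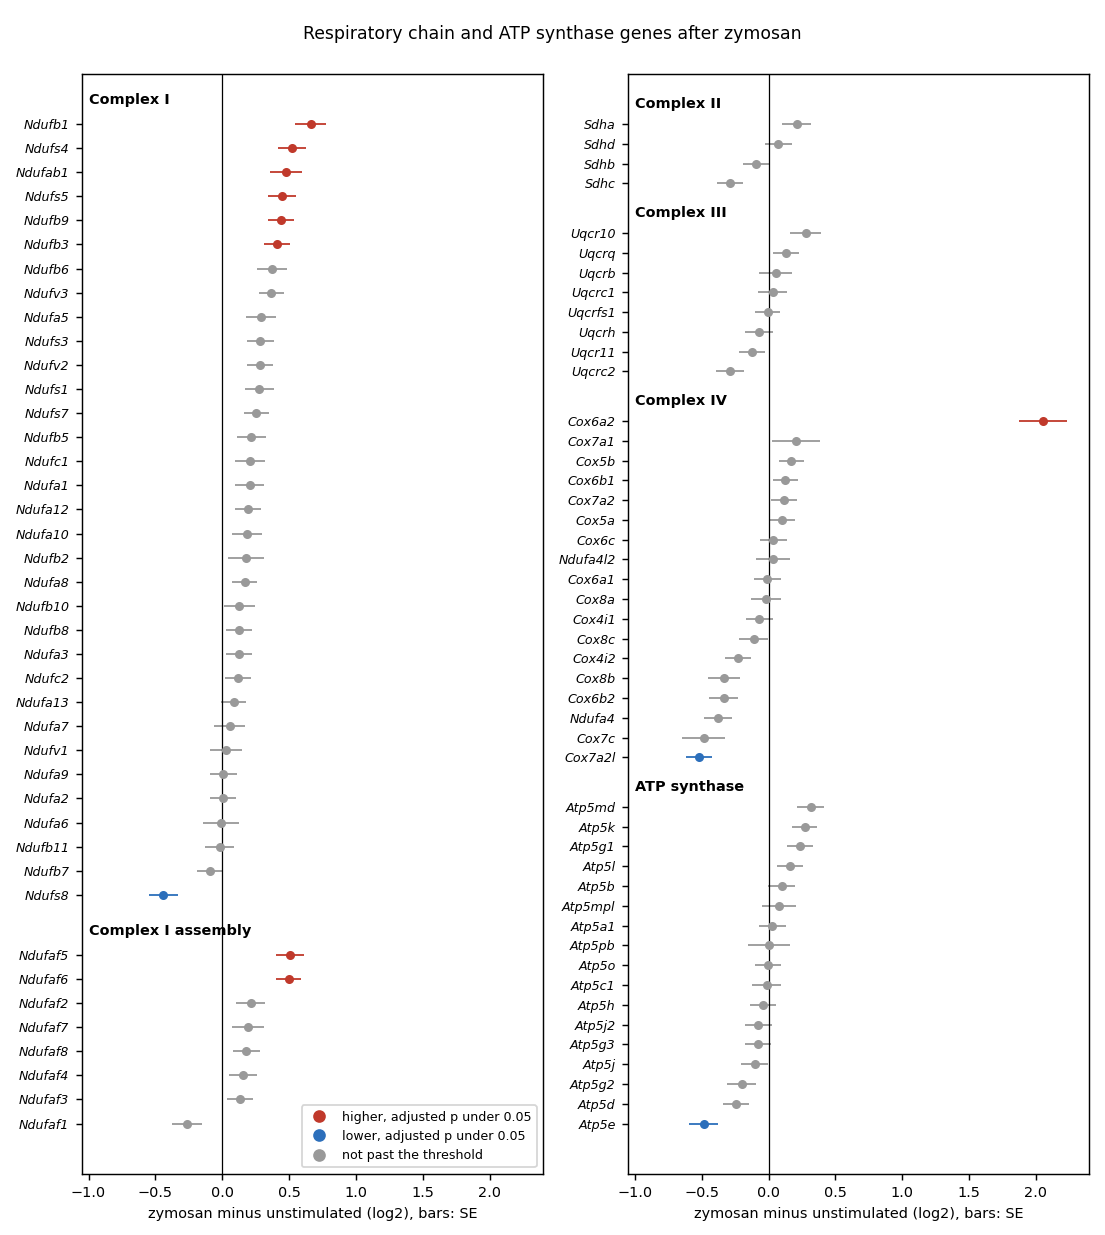
Differences of the 88 tested genes, zymosan minus unstimulated (log2), grouped by complex, as points with bars of 1 SE, red (higher) or blue (lower) where past the threshold. Most complex I genes sit right of 0 with a median of 0.19, the other complexes centre near 0, and Cox6a2 at 2.06 stands apart.

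The higher calls lay mostly in complex I. Of its 33 tested subunits 6 (18.2%) rose and 1 (3.03%) fell, beside 10.1 and 6.73 percent of all tested genes. A difference above 0 was found for 29 (87.9%), beside 50.7 percent. The arrays of the groups did not overlap with zymosan higher in 23 (69.7%, beside 32.4 percent) and lower in 2 (6.06%, beside 28.2 percent). The median difference was 0.19. Of the 8 Ndufaf assembly factors 2 (25%) rose and 0 fell (0 lower at an unadjusted p under 0.05). A difference above 0 was seen in 7 (87.5%), and the median was 0.19. Among the 47 genes of complexes II to V 1 (2.13%) rose and 2 (4.26%) fell, 22 (46.8%) had a difference above 0, and the median was -0.01. Whether complex I differed from the other complexes was not tested.

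Measured as the median deviation of its subunits from their own 4-array means, complex I stood at 0.11 and 0.07 on the zymosan arrays, against -0.13 and -0.08 on the unstimulated arrays. The assembly factors stood at 0.10 and 0.11 on the zymosan arrays, against -0.11 and -0.10 on the unstimulated arrays. In both sets each zymosan array was above each unstimulated array. Complex II had 0.05 and -0.06 on the zymosan arrays, against 0.02 and 0.02 on the unstimulated arrays. Complex III had 0.01 and -0.02 on the zymosan arrays, against 0.02 and -0.04. Complex V had 0.01 and -0.04 on the zymosan arrays, against -0.02 and 0.04. The arrays of the groups overlapped in these 3 complexes. Complex IV, at -0.05 and -0.01 on the zymosan arrays against 0.02 and 0.03 on the unstimulated arrays, did not overlap, though all 4 deviations were small. Over all tested genes the same medians were 0.01 and 0.01 on the zymosan arrays, against 0.01 and -0.03.

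**Figure D2:**
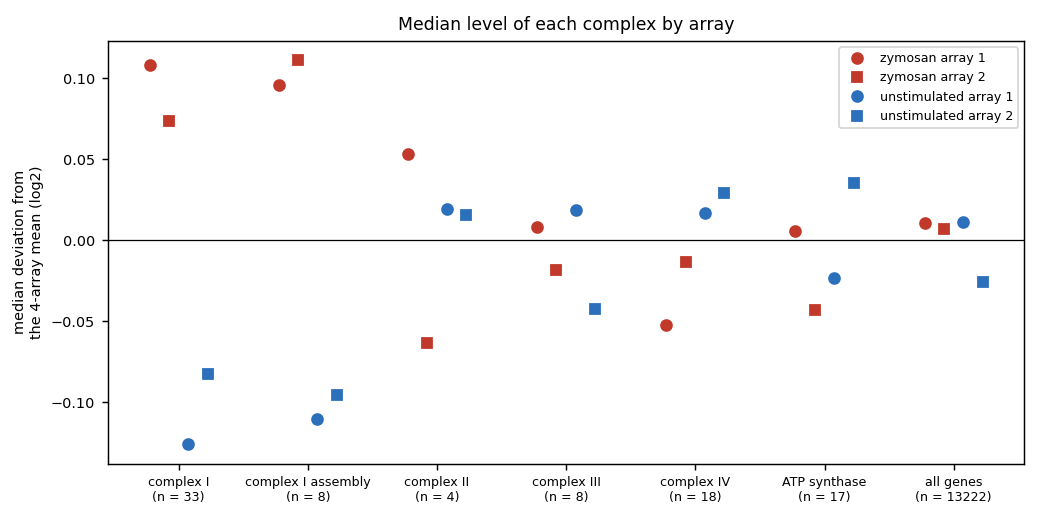
Median deviation of the genes of each complex from their own 4-array means (log2), one point per array, zymosan and unstimulated. Complex I (0.11 and 0.07 against -0.13 and -0.08) and its assembly factors separate by group, while complexes II, III and V overlap.

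The promoters of 4 of the 12 genes that rose or fell hold a recognition sequence of a factor known to act on respiratory chain genes, and these windows are shown so that the motif can be read in its place. Each is 300 bases of RefSeq sequence (GRCm38.p6), from 250 before the gene's start to 50 after it, printed 5′ to 3′ on the gene's own strand with the motif in capitals. Ndufs4 (chr13:114388045-114388344, minus strand) and Ndufaf5 (chr2:140170396-140170695, plus strand) rose. Ndufs8 (chr19:3912725-3913024, minus strand) and Atp5e (chr2:174464052-174464351, minus strand) fell.
Ndufs4: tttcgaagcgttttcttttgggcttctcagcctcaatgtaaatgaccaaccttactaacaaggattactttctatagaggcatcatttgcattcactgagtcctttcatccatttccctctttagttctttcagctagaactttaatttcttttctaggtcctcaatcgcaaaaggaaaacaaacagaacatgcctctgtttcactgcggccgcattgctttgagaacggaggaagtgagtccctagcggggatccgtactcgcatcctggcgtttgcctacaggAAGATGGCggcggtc
Ndufaf5: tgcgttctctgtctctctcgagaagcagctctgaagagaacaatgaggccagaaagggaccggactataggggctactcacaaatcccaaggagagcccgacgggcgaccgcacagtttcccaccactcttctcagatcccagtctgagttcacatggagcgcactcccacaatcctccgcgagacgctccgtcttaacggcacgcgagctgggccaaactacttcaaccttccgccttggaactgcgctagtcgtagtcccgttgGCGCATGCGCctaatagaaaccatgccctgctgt
Ndufs8: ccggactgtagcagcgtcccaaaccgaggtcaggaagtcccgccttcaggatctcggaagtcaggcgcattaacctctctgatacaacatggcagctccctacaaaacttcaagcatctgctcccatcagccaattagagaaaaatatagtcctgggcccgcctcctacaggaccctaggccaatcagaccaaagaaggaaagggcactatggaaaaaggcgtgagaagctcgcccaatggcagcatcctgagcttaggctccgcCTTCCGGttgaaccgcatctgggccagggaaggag
Atp5e: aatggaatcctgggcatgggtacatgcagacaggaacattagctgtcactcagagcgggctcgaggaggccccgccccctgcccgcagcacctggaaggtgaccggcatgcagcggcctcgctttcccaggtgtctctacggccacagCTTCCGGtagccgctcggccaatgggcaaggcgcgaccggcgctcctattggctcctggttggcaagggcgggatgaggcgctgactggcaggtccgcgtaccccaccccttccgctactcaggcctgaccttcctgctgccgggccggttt
The capitals mark AAGATGGC, a YY1 motif, in Ndufs4 (bases 286 to 293 of the window), the palindromic NRF1 motif in Ndufaf5 (bases 267 to 276), and CTTCCGG, the reverse complement of the ETS motif CCGGAAG to which GABP binds, in Ndufs8 (bases 266 to 272) and Atp5e (bases 149 to 155). Both strands were searched, and no 2 motifs overlapped.

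A window was found for 74 of the genes by gene identifier, 79 windows in all, and the table holds 32851 windows. The NRF1 motif was in 6 of the 79 (7.59%), beside 0.971% of all windows. The ETS motif was in 19 (24.1%), beside 8.86%, and the YY1 motif in 10 (12.7%), beside 2.75%. Each motif was thus a larger share of these windows than of the table. Of the genes with a motif, 5 of 6 with the NRF1 motif, 17 of 19 with the ETS motif and 9 of 10 with the YY1 motif had no call, beside 76 of the 88 tested genes, so nothing is read from these counts. By complex, 4 of the ETS windows and 6 of the YY1 windows belonged to complex I, where 6 genes rose, and 6 and 3 to complex V, where 0 rose (3 were higher at an unadjusted p under 0.05). Of the 12 genes with a call 9 had a window. A match is a description of letters in the window, and no factor's binding was measured.

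Complex I has a catalytic core, which carries the flavin and iron-sulfur clusters, and a shell of accessory subunits that stabilize it. Of the 6 core subunits tested 0 rose and 1 fell. At an unadjusted p under 0.05, 4 were higher and 1 lower, where the whole table had 18.5 and 13.9 percent. Ndufs8, a core subunit with iron-sulfur clusters on the path to the quinone site, fell, with 10.90 and 10.83 on the zymosan arrays against 11.40 and 11.21 on the unstimulated arrays. The difference was -0.44 (SE 0.11, adjusted p = 0.0453) and the groups did not overlap. Its 5 other probe sets also lay lower in the zymosan group, with differences of -0.25 to -0.42, and none of these passed the test. Ndufs8 lost its call when each array was centred on its median, when no filter was applied, when its probe sets were averaged and in the fit over single probe sets (adjusted p = 0.0590), and it kept its sign in each.

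Ndufs1, Ndufs3, Ndufs7 and Ndufv2, the other core subunits with a difference over 0.25, went the other way without passing the test. Ndufs1, the large subunit that takes electrons along the peripheral arm, had 9.41 and 9.28 on the zymosan arrays, against 9.13 and 9.0 on the unstimulated arrays (0.28, adjusted p = 0.141). Ndufs3 had 9.95 and 10.02, against 9.64 and 9.76 on the unstimulated arrays (0.28, adjusted p = 0.114). Ndufv2, part of the module that oxidizes NADH, had 11.07 and 11.03, against 10.82 and 10.72 on the unstimulated arrays (0.28, adjusted p = 0.110). In all 3 both zymosan arrays lay above both unstimulated arrays. Ndufs7, the core subunit that passes electrons to the quinone, had a difference of 0.26 (adjusted p = 0.123). Ndufv1, the flavin-binding subunit, had 9.54 and 9.39 on the zymosan arrays, against 9.53 and 9.34 on the unstimulated arrays, and its groups overlapped.

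Of the 27 accessory subunits tested 6 (22.2%) rose and 0 fell, beside 10.1 and 6.73 percent of all tested genes. At an unadjusted p under 0.05, 9 were higher and 0 lower, and the median difference was 0.19. Ndufb1, a small subunit of the membrane arm, had the largest difference, with 8.02 and 8.24 on the zymosan arrays against 7.40 and 7.53 on the unstimulated arrays (0.66, SE 0.12, adjusted p = 0.0179). Ndufs4, an accessory subunit of the NADH-oxidizing module whose loss in mice gives a model of Leigh syndrome, had 9.45 and 9.49 on the zymosan arrays, against 8.86 and 9.03 (0.52, SE 0.11, adjusted p = 0.0259). The groups did not overlap in either gene. A second Ndufs4 probe set, with 6.38 and 6.35 on the zymosan arrays against 5.74 and 5.72 on the unstimulated arrays, also rose (0.64, adjusted p = 0.0155 in the fit over all probe sets), and one more did not pass the test (0.11).

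Ndufb9, another subunit of the membrane arm, rose to 11.00 and 10.90 on the zymosan arrays, against 10.51 and 10.51 on the unstimulated arrays (0.44, adjusted p = 0.0341). Its other probe sets gave 0.37 (adjusted p = 0.0693) and -0.10, and the mean of all of them did not pass the test. Ndufs5, which lies on the intermembrane side, had 10.33 and 10.46 on the zymosan arrays, against 9.97 and 9.92 (0.45, adjusted p = 0.0366). Ndufb3, of the membrane arm, had 10.10 and 10.04 on the zymosan arrays, against 9.61 and 9.70 (0.41, adjusted p = 0.0418). Ndufab1, the mitochondrial acyl carrier protein, had 11.13 and 11.35 on the zymosan arrays, against 10.70 and 10.83 (0.48, adjusted p = 0.0455). It is named here after its values were seen, as the last of the 6, and a second probe set differed by 0.17 without a call. The groups did not overlap at the named probe set of any of these 4 genes. In the fit over single probe sets, Ndufb3 and Ndufab1 were past an unadjusted p of 0.05 and not past the adjusted one (0.0556 and 0.0584). Both also lost their call when no filter was applied, and Ndufab1 lost it when its probe sets were averaged.

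The 21 accessory subunits without a call ranged from genes just outside the threshold to genes with no visible difference. Ndufv3, of the NADH-oxidizing module, had 11.39 and 11.31 on the zymosan arrays, against 10.99 and 10.98 on the unstimulated arrays (0.37, adjusted p = 0.0520). Ndufb6, of the membrane arm, had 10.85 and 10.64, against 10.36 and 10.39 on the unstimulated arrays (0.37, adjusted p = 0.0763). These 2 lay just outside the threshold, with groups that did not overlap at these probe sets. With an intensity trend in the variance model both passed it (adjusted p = 0.0234 and 0.0456). A second Ndufb6 probe set had 10.32 and 10.67 on the zymosan arrays, against 10.42 and 10.48 on the unstimulated arrays. Its groups overlapped (0.04, adjusted p = 0.890 in the limma fit over all probe sets). Ndufa2 was the flattest, at 11.05 and 10.97 on the zymosan arrays and 10.99 and 11.04 on the unstimulated arrays. Ndufc2 and Ndufa13, whose probe sets had the highest means in complex I, differed by 0.12 (adjusted p = 0.465) and 0.09 (adjusted p = 0.588). The lowest difference among accessory subunits was that of Ndufb7, at -0.09.

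The Ndufaf proteins help to build complex I and are not part of the finished enzyme. Ndufaf6 had 6.57 and 6.60 on the zymosan arrays, against 6.11 and 6.06 on the unstimulated arrays (0.50, SE 0.10, adjusted p = 0.0216). Ndufaf5, an enzyme that hydroxylates a residue of the Ndufs7 protein during assembly, had 6.67 and 6.55 on the zymosan arrays, against 6.06 and 6.16 (0.51, SE 0.10, adjusted p = 0.0272). The groups did not overlap in either gene. Ndufaf1, which acts on the membrane arm, was the only factor lower in the zymosan group, with 6.94 and 7.02 against 7.15 and 7.34 on the unstimulated arrays, and did not pass the test (-0.26, adjusted p = 0.165). Ndufaf2, Ndufaf3, Ndufaf4, Ndufaf7 and Ndufaf8 had differences of 0.13 to 0.21 with no call.

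**Figure D3:**
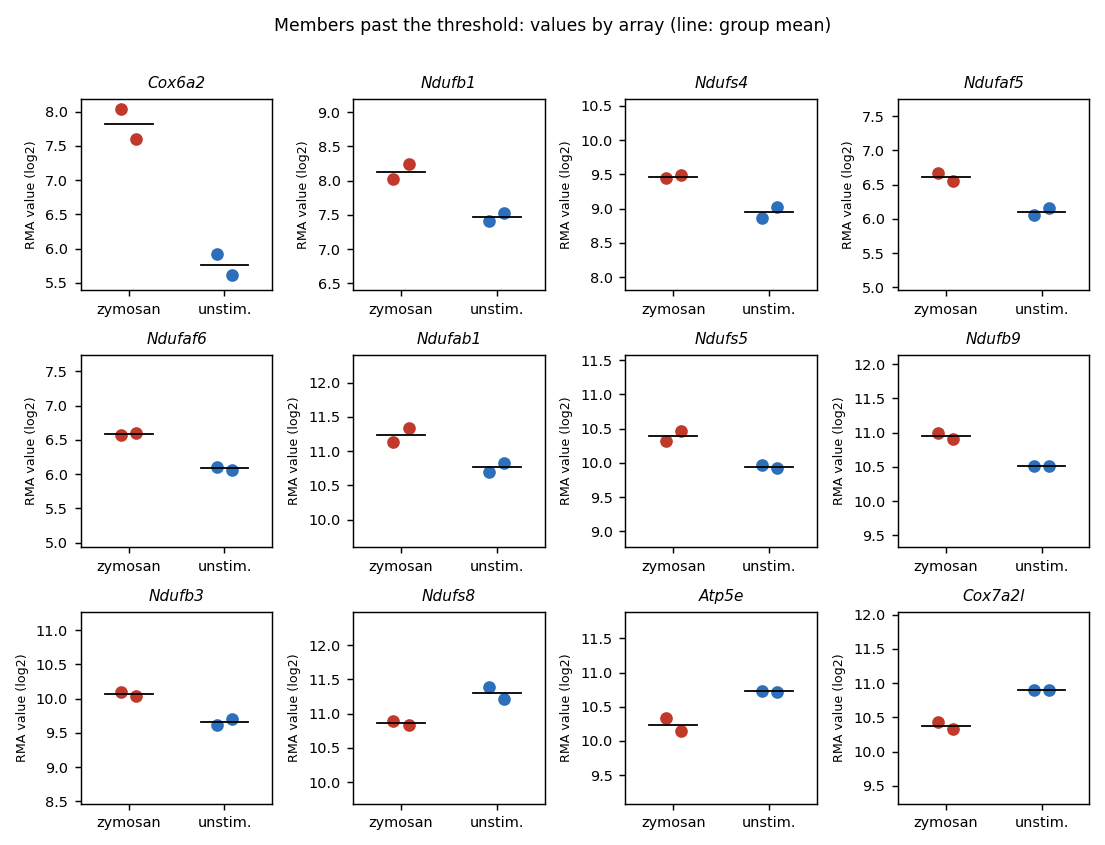
Log2 values of the 12 genes past the adjusted threshold, 1 panel per gene, zymosan left and unstimulated right, with a point per array and a line at each group mean. The groups do not overlap in any panel, and 9 genes are higher and 3 lower after zymosan.

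Complex II, succinate dehydrogenase, also serves the citrate cycle, and limma called 0 of its 4 genes in either direction (0 higher and 1 lower at an unadjusted p under 0.05). Sdha, the flavin-binding subunit that oxidizes succinate, had 10.89 and 10.90 on the zymosan arrays, against 10.59 and 10.77 on the unstimulated arrays (0.21, adjusted p = 0.238). Sdhb, the iron-sulfur subunit, had 10.96 and 10.83, against 10.99 and 10.99 on the unstimulated arrays (-0.09, adjusted p = 0.580). Sdhc, a membrane anchor, had 9.85 and 9.78, against 10.13 and 10.08 on the unstimulated arrays (-0.29, adjusted p = 0.0974). Sdha and Sdhc thus differed in sign, and neither passed the test. Sdhd, the other anchor, overlapped between the groups (0.07).

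Complex III passes electrons from coenzyme Q to cytochrome c, and 0 of its 8 genes had a call (0 higher and 1 lower at an unadjusted p under 0.05). Uqcrfs1, the Rieske iron-sulfur protein, was level, with 10.00 and 10.03 on the zymosan arrays and 10.03 and 10.01 on the unstimulated arrays (-0.01). The core protein Uqcrc1 differed by 0.03 with overlapping groups. Uqcrb, whose probe set had the highest mean here, differed by 0.05. Uqcrc2, the second core protein, had 9.73 and 9.84 on the zymosan arrays, against 10.12 and 10.02 on the unstimulated arrays (-0.29, adjusted p = 0.117), while another probe set of the same gene gave 0.32 with no call. Its probe sets thus disagreed in sign. Uqcr10, a small subunit, differed by 0.28 (adjusted p = 0.161), but its dimmest probe set, with 8.13 and 8.14 on the zymosan arrays against 7.33 and 7.46 on the unstimulated arrays, rose (0.74, adjusted p = 0.0124 in the fit over all probe sets).

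Complex IV, cytochrome c oxidase, held the largest difference of the whole group. Cox6a2 encodes the heart and skeletal muscle isoform of subunit VIa, and Cox6a1 the form found in most other tissues. Cox6a2 had 8.03 and 7.60 on the zymosan arrays, against 5.91 and 5.61 on the unstimulated arrays, a difference of 2.06 (SE 0.18, adjusted p = 0.00261), or 4.16-fold. Both zymosan arrays lay far above both unstimulated arrays. A second Cox6a2 probe set had 5.24 and 5.42 on the zymosan arrays, against 4.30 and 3.48, which are below the filter's level, and was at least 1.92-fold higher (adjusted p = 0.0230 in the fit over all probe sets). Cox6a1 was level at its representing probe set, with 12.78 and 12.89 on the zymosan arrays and 12.88 and 12.81 on the unstimulated arrays (-0.01, adjusted p = 0.966). Another Cox6a1 probe set was lower without overlap and had no call (-0.23, adjusted p = 0.186 in the fit over all probe sets).

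The other tissue-specific or alternative isoforms had no call. Of 7 isoform genes tested 1, Cox6a2, rose and 0 fell (2 were lower at an unadjusted p under 0.05). Cox7a1, the muscle isoform of subunit VIIa, had 6.24 and 6.21 on the zymosan arrays, against 6.28 and 5.76 on the unstimulated arrays (0.21, adjusted p = 0.489), and without the first unstimulated array it had a call (0.47, adjusted p = 0.0298). Cox8b, the muscle isoform of subunit VIII, had 4.43 and 4.50, against 4.92 and 4.67 on the unstimulated arrays (-0.33, adjusted p = 0.116), and Cox6b2, the testis isoform of subunit VIb, had 4.72 and 4.67, against 5.13 and 4.93 (-0.34, adjusted p = 0.0929). Both had a lower call without the second unstimulated array (-0.46, adjusted p = 0.0361, and -0.43, adjusted p = 0.0419). These values lie close to the filter's level. Cox4i2, the lung isoform of subunit IV, was below that level on both zymosan arrays (4.22 and 4.23) and just above it on the unstimulated arrays (4.48 and 4.42), and had no call (adjusted p = 0.161). No size is given for it, since one group lay wholly under the level. Cox8c, the testis isoform of subunit VIII, gave -0.11 at one probe set and 0.28 at another, neither called. Ndufa4l2, a paralogue of Ndufa4 known to be induced by low oxygen, overlapped between the groups (0.03).

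**Figure D4:**
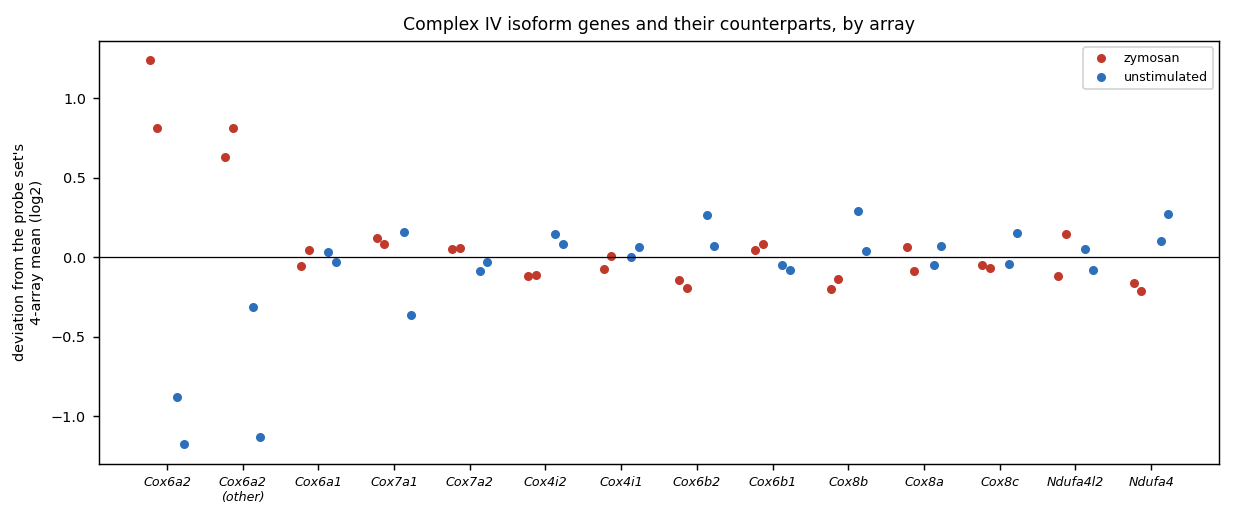
Deviation of each array from the 4-array mean of the probe set (log2) for the isoform genes of complex IV and their widely expressed counterparts, zymosan and unstimulated arrays. The representing Cox6a2 probe set differs by 2.06 between group means. Its other probe set is at least 1.92-fold higher, with both unstimulated arrays below the filter's level. The arrays of the other genes lie closer to 0 than those of the representing Cox6a2 probe set. The 2 unstimulated arrays of Cox7a1 lie apart (6.28 and 5.76).

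Cox7a2l, known as the factor that joins complexes III and IV into a supercomplex, fell, with 10.43 and 10.33 on the zymosan arrays against 10.89 and 10.90 on the unstimulated arrays (-0.52, SE 0.10, adjusted p = 0.0210). A second probe set fell too (-0.50, adjusted p = 0.0377 in the fit over all probe sets), and the remaining one differed by -0.41 (adjusted p = 0.0555). Ndufa4, first assigned to complex I and now known as a subunit of complex IV, had 10.50 and 10.45 on the zymosan arrays, against 10.77 and 10.94 (-0.38, adjusted p = 0.0634). It did not pass the test here and did under 4 of the 13 other settings, with adjusted p-values of 0.0309 to 0.0460. The main structural subunits were nearly level. Cox4i1 had 12.14 and 12.22 on the zymosan arrays and 12.22 and 12.28 on the unstimulated arrays (-0.07). Cox5a differed by 0.10. Cox5b, which binds zinc, had 12.69 and 12.72 on the zymosan arrays, against 12.52 and 12.55 (0.17, adjusted p = 0.271). The other Cox5b probe sets above the filter gave 0.18, 0.11, -0.07 and -0.22, and none had a call. Cox7c, at 4.31 and 4.46 on the zymosan arrays and 4.65 and 5.08 on the unstimulated arrays, differed by -0.49 (adjusted p = 0.0961). It fell without the first unstimulated array (-0.70, adjusted p = 0.0101), and its first zymosan value is below the filter's level.

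ATP synthase has a catalytic head, a central stalk and a membrane rotor. Of its 17 genes 0 rose (3 were higher at an unadjusted p under 0.05) and 1 fell. Atp5e, the small epsilon subunit of the central stalk, had 10.33 and 10.15 on the zymosan arrays, against 10.74 and 10.71 on the unstimulated arrays (-0.49, SE 0.11, adjusted p = 0.0331), with no overlap. Atp5d, the delta subunit beside it in the stalk, differed by -0.24 (adjusted p = 0.153). The catalytic subunit Atp5b had 11.83 and 11.95 on the zymosan arrays, against 11.75 and 11.82 (0.10, adjusted p = 0.566). The alpha subunit Atp5a1 differed by 0.03 with overlapping groups. Its other probe sets were higher without overlap and had no call in the fit over all probe sets (0.22, adjusted p = 0.220, and 0.54, adjusted p = 0.0542). Atp5pb, of the outer stalk, had the smallest difference (0.00) but 11.46 and 11.89 on the zymosan arrays, one on either side of the 11.64 and 11.71 of the unstimulated arrays.

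The 3 genes Atp5g1, Atp5g2 and Atp5g3 encode the same mature rotor subunit c behind different import sequences. Atp5g1 had 10.09 and 10.08 on the zymosan arrays, against 9.82 and 9.88 on the unstimulated arrays (0.23, adjusted p = 0.153). Atp5g2 had 10.98 and 10.82, against 11.11 and 11.10 on the unstimulated arrays (-0.20, adjusted p = 0.245). Atp5g3 had 12.17 and 12.10, against 12.19 and 12.25 (-0.08, adjusted p = 0.620). The first was higher and the other two lower after zymosan on all arrays, and none passed the test. Atp5md, a small subunit also known as DAPIT, differed by 0.31 (adjusted p = 0.0843), and Atp5k, the e subunit, by 0.27 (adjusted p = 0.116).

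Where a gene had several probe sets above the filter, they often gave different sizes. Of 48 such genes 34 had probe sets of 1 sign and 14 of mixed sign, the median spread between the probe sets of a gene was 0.193, and the largest was 0.809. Over the 166 probe sets of the respiratory chain and ATP synthase genes above the filter, 10 rose and 3 fell in the fit over all probe sets. The share of all probe sets called in that fit is not given here, so nothing is read from these counts. There were 0 genes with probe sets called in opposite directions. Ndufs4 and Cox6a2 each had 2 probe sets that rose, and Cox7a2l had 2 that fell. Among the genes with a call, the representing probe sets of Atp5e and Ndufab1 carry an Affymetrix suffix for oligonucleotides shared by several transcripts. That of Ndufs8 carries one for oligonucleotides that may bind unrelated transcripts, so these 3 values may include other transcripts. The same holds for the second probe sets of Ndufs4, Cox6a2 and Cox7a2l, which carry the suffix of the Ndufs8 one. It also holds for the representing probe sets of several genes without a call, among them Ndufa2, Ndufa13, Ndufc2, Ndufv1, Cox5b, Cox7c, Atp5d and Atp5pb.

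The spread between arrays of a group was smaller than the difference between groups. Over the 88 genes, the SD of the differences was 0.127 between the zymosan arrays and 0.142 between the unstimulated arrays, against 0.317 to 0.356 between arrays of different groups. Arrays of different groups also differed in scan day, operator and project, so stimulus and scan day cannot be told apart in these values. Most calls were lost when either zymosan array was left out. The spread in those fits came from the unstimulated pair alone, whose scans lay 16 days apart. Over all tested genes, the SD of the differences was 0.258 between the unstimulated arrays and 0.172 between the zymosan arrays, which were scanned on the same day. Without the first zymosan array 1 gene rose and 0 fell, and the same counts were found without the second, and in both fits the gene was Cox6a2 (adjusted p = 0.0203 and 0.0141). The 0 lower calls stood beside 3 and 2 genes at an unadjusted p under 0.05. With scan day as a random block, Cox6a2 again rose alone (adjusted p = 0.00903), beside 10 higher and 5 lower at an unadjusted p under 0.05. Without the first unstimulated array the calls of Ndufb3 (adjusted p = 0.0672), Ndufab1 (adjusted p = 0.0758) and Ndufs8 (adjusted p = 0.0776) were lost, and without the second that of Ndufs5 (adjusted p = 0.0559). Under all 13 other settings the 12 genes kept their direction, and the difference of Cox6a2 ran from 1.75 to 2.27.

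**Figure D5:**
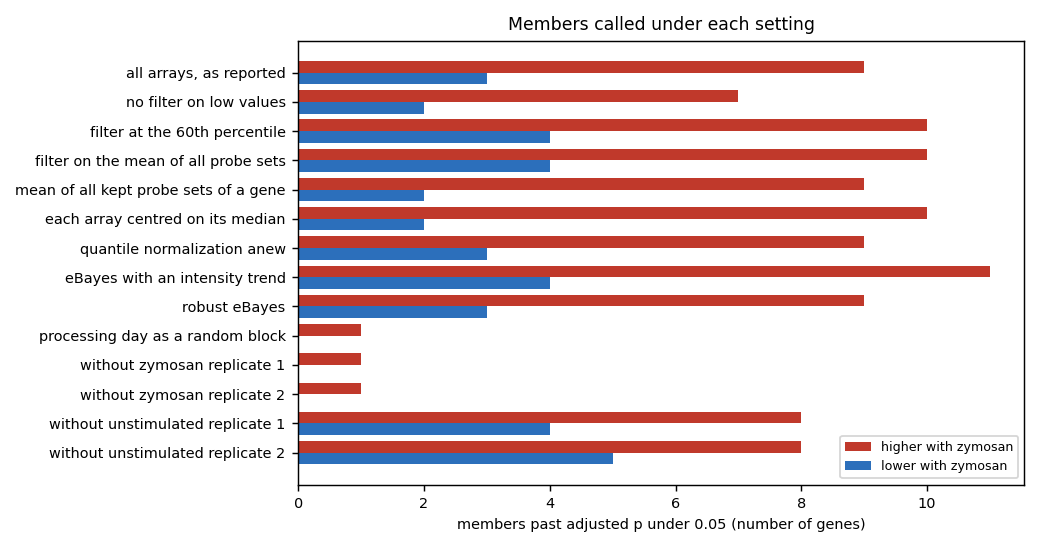
Number of the respiratory chain and ATP synthase genes past adjusted p under 0.05 in each direction under the fit reported and 13 other settings. The counts run from 7 to 11 higher except without either zymosan array and with scan day as a block, where 1 gene is higher and 0 are lower.

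Genes that serve the chain without carrying its symbols were counted from 5 lists chosen with earlier results of these data known. Of the 83 tested 13 (15.7%) rose and 2 (2.41%) fell, beside 10.1 and 6.73 percent of all tested genes, 57 had a difference above 0, and the median was 0.20. Among 33 assembly factors outside the Nduf names 6 rose and 1 fell (median 0.13). Higd1a, a hypoxia-inducible factor of complex IV and supercomplexes, had 10.16 and 10.22 on the zymosan arrays, against 9.41 and 9.21 on the unstimulated arrays (0.88, adjusted p = 0.00717). Tmem186, of the complex I assembly machinery, had 7.28 and 7.34, against 6.64 and 6.44 on the unstimulated arrays (0.77, adjusted p = 0.0102), and Ttc19, which acts on complex III, rose by 0.68 (adjusted p = 0.0108). Pet100, a complex IV factor, fell, with 8.72 and 8.65 on the zymosan arrays against 9.28 and 9.43. These 3 increases and the decrease showed no overlap between the groups.

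Among 13 genes for cytochrome c, cytochrome c1 and coenzyme Q synthesis 3 rose and 1 fell (median 0.31). Coq10b, which binds coenzyme Q, had 8.69 and 8.54 on the zymosan arrays, against 7.63 and 7.50 on the unstimulated arrays (1.05, adjusted p = 0.00426). Coq7, a hydroxylase of the same pathway, rose by 0.60 (adjusted p = 0.0196), and Coq8a, a kinase-like protein of that pathway, was lower, with 5.65 and 5.66 on the zymosan arrays against 6.22 and 6.17 (-0.54, adjusted p = 0.0169). Cyc1, the cytochrome c1 of complex III, which the symbol rule does not take in, had 11.03 and 11.03 on the zymosan arrays, against 10.64 and 10.54 (0.44, adjusted p = 0.0331). It rose, and none of the 8 Uqcr genes of the same complex had a call at the probe set that represents it. Among 16 genes of the citrate cycle and pyruvate dehydrogenase 3 rose and 0 fell (0 lower at an unadjusted p under 0.05, median 0.20), namely Ogdh (0.64, adjusted p = 0.0170), Suclg2 (0.50, adjusted p = 0.0293) and Dlat (0.53, adjusted p = 0.0324).

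Of 20 regulators of mitochondrial gene expression tested 1 rose and 0 fell (4 higher and 1 lower at an unadjusted p under 0.05), and the median was 0.15. Ssbp1, the mitochondrial single-stranded DNA-binding protein, had 10.26 and 10.22 on the zymosan arrays, against 9.80 and 9.83 on the unstimulated arrays (0.42, adjusted p = 0.0352). Nrf1, the factor that binds the motif found in the Ndufaf5 promoter, differed by 0.56 (adjusted p = 0.0514), and Gabpb1, a subunit of the factor that binds the ETS motif, by 0.39 (adjusted p = 0.0515). Both lay just outside the threshold. Gabpa (0.27), Pprc1 (0.35), Tfam (0.06), Esrra (-0.11) and Ppargc1b (-0.21) had no call, and Ppargc1a was not tested because it stayed under the filter. The 1 mitochondrially encoded subunit tested, ND5 of complex I, differed by 0.02.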

How the data were processed

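The authors deposited log2 values for each probe set on each array, computed with RMA per the submitters' processing notes. Which version of RMA ran, and on which arrays jointly, is not given in the sources used here. Deposited scanner settings gave the chip type, scan day, operator and project. Besides 64 controls there were 45037 probe sets, and the platform annotation gave 1 symbol for 34945, several for 932 and none for 9160. The filter kept the 27571 at or above the 40th percentile of an array in 2 or more arrays. Genes took the probe set of highest mean. Zymosan and unstimulated arrays were compared with limma 3.58.1 (R 4.3.3; lmFit, then eBayes), 2-sided, with Benjamini-Hochberg adjustment over all 13222 genes, or over all 27571 probe sets where probe sets are named, and a threshold of 0.05. The script was tested on simulated data. With 2 arrays a group, the smallest p of an exact permutation test is 0.333. The limma test borrows variance across genes, and the number of arrays limits the precision. A fold was computed against the filter's level where a group had both arrays under it.

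The members and gene lists were chosen with earlier results of these data known. Genes were named by rule: per complex up to 5 of smallest p past the threshold in each direction, the 2 of highest mean and the 1 of smallest difference, any with a difference of at least 1, isoforms, a set of core subunits, and 3 per other list with the main regulators. Ndufab1, Pet100, Cyc1, Ndufv3, Ndufb6, Ndufb7, Ndufb4, Cox7c, Atp5d, Atp5k, Atp5md, Uqcr10, Ndufaf1, Ndufaf2, Ndufaf7 and the neighbours of Cox6a2 were added after their values were seen. Alternatives varied the filter, the probe set per gene, the normalization, the variance model, the scan day as a block and the arrays left out. Promoters came from RefSeq (GRCm38.p6). No protein sequences were used here.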

Additional observations from a re-analysis of the deposited data

How the results depend on the processing

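The direction of the 12 genes with a call held under all 13 alternatives, and Cox6a2 stayed past the threshold in each. With scan day as a random block, 589 genes rose and 400 fell in the whole table, against 1335 and 890, and among the respiratory chain and ATP synthase genes 1 rose and 0 fell, against 9 and 3. The planned estimate of the within-day correlation by duplicateCorrelation could not be made from 4 arrays, so the value used, 0.4843, came from the spread of the same-day and different-day pairs, a choice made after seeing the data. Of the other pathway genes 5 then rose and 1 fell, against 13 and 2, and 1 fell when probe sets were averaged. Leaving out 1 array at a time gave 161 to 1782 genes higher and 100 to 1133 lower, 1 to 8 members higher and 0 to 5 lower, and 0 to 19 other pathway genes higher and 0 to 2 lower. The low ends came from leaving out a zymosan array, which leaves that group with 1 array assumed to vary like the other. The median of the members was 0.0916 with no filter, 0.117 with either stricter filter, 0.124 with arrays centred on their medians and 0.0915 to 0.109 with an array left out. The complex I assembly median was 0.204 with probe sets averaged, 0.212 centred, 0.168 after quantile normalization anew and 0.178 to 0.199 with an array left out. The complex II median was -0.0821 with probe sets averaged. The complex III median ran from -0.0321 to 0.0541 with an array left out. The complex IV median was 0.0332 with either stricter filter, 0.00907 centred and -0.0808 to -0.0218 with an array left out. The cause of these shifts was not tested. Medians of complexes II to V thus changed sign with the setting. The median of all genes stayed within 0.0315 of 0 under each. Genes near the filter's level of 4.36 to 4.39 have little signal over background. No paired analysis was possible because the labels give no replicate numbers that the groups share.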

Other observations

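Cox6a2 lies in GRCm38.p6 beside integrin genes of myeloid cells, and its nearest neighbours were looked up after its values were seen. Itgam, the alpha chain of the integrin Mac-1, had 8.70 and 8.64 on the zymosan arrays, against 10.25 and 10.41 on the unstimulated arrays, and fell (-1.66, adjusted p = 0.00103 by limma). Itgax, the alpha chain of the integrin known as CD11c, had 6.17 and 6.19 on the zymosan arrays, against 7.17 and 7.04 on the unstimulated arrays, and fell as well (-0.93, adjusted p = 0.00479). Both lie on the same side of Cox6a2, beyond Itgad, which overlaps Cox6a2 in that annotation and had no value here. On the other side, Armc5, the second gene away, fell, with 7.18 and 7.20 on the zymosan arrays against 7.76 and 7.82 on the unstimulated arrays (-0.60, adjusted p = 0.0128), and 9130023H24Rik, next to Cox6a2, did not pass the test (-0.16, adjusted p = 0.395). Whether the probes of Cox6a2 bind a transcript of an overlapping gene was not tested.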
